A study of Rattus norvegicus with 6 samples.

Results

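The genes described here encode chromatin remodelers and the enzymes that modify histones and DNA, measured in the brains of newborn rats (Rattus norvegicus). They were taken by name: every gene whose symbol begins with Smarc, and every gene whose symbol begins with Kdm, Kmt, Hdac, Dnmt, Tet, Chd or Arid followed by a number, with 3 demethylase genes and names marked as pseudogenes left out. The rule found 75 of the 30498 genes in the tables, and 71 of them reached a mean of 0.5 FPKM over all libraries and were tested. FPKM, the unit throughout, is the number of fragments assigned to a gene scaled by its exon length and by the library's assigned total, so levels can be set beside each other across genes.

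The study modelled fetal growth restriction by caloric restriction (CR) of the mother, and its design text compares CR with control pups. All pups came by Caesarean section and were dissected at birth; the labels call every sample whole brain, and each group has 3 libraries of polyadenylated RNA. Strain, sex, the degree and timing of the restriction, and whether libraries come from separate pups or litters are not stated in the labels, so every p-value reflects library-to-library spread, which may be technical. In bulk tissue, fewer cells of a type and less RNA per cell cannot be told apart.

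Remodelers use ATP to slide, eject or exchange nucleosomes, and in neural development the BAF complex swaps subunits as progenitors become neurons. Histone methyltransferases, demethylases and deacetylases set and remove the marks that separate active from silent chromatin. DNA methyltransferases write methylcytosine and TET enzymes oxidise it, and in the brain both are known for their part in neuronal maturation.

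Depth was 14030961 to 25734737 assigned reads per library. The groups also differed in marker genes of brain regions and cell types. The 10 dorsal telencephalic markers summed to 504 to 625 FPKM in control and to 183 to 288 FPKM in CR, and 9 of the 10 were past the threshold as lower. The 25 markers of regions behind the telencephalon, from thalamus to cerebellum, summed to 30.5 to 46.3 FPKM in control and to 190 to 255 FPKM in CR, with 18 of 21 tested past it as higher. The 14 ventral telencephalic markers summed to 205 to 246 FPKM in control and 164 to 168 FPKM in CR (9 lower, 2 higher). The 12 markers of progenitors and cycling cells summed to 410 to 454 and 407 to 462 FPKM (5 lower and 1 higher), the 10 of postmitotic neurons to 2911 to 3232 and 3202 to 3215 FPKM (7 higher), and the 8 of astrocytes to 85.7 to 119 and 167 to 194 FPKM (7 higher). The 6 microglial markers summed to 26.4 to 35.4 and 44.0 to 50.9 FPKM, with 4 higher, and the 7 of the oligodendrocyte lineage to 47.5 to 56.6 and 63.1 to 72.8 FPKM, with 3 higher. Markers of endothelium (4 tested), of meninges and choroid plexus (7) and of blood (2) had none past the threshold. None of these lists had a marker at 0 in every library, but 2 of 6 endothelium and pericyte markers (Cldn5 and Flt1) were not found by name. The same held for 2 of 6 blood markers (Alas2 and Hbb). In Hox genes 1 library, CR replicate 3, stood apart: its Hoxb5 level was 14.4 FPKM, while the other CR libraries had 0.559 and 0.405 FPKM. Y-linked RNA was present in control replicate 3 and in CR replicates 1 and 3. The part of these differences in the results below was not tested.

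Most chromatin genes that changed were lower in the CR brain. Of the 71 tested, 38 fell, 4 rose and 29 did not pass an adjusted p of 0.05 (limma on log2(FPKM + 1), Benjamini-Hochberg over all 15247 genes tested). Among all tested genes 16.2% fell and 17.7% rose, 33.9% in all, against 53.5% and 5.63% of the chromatin genes. The median log2 fold change was -0.25 for the 71 and 0.01 for all tested genes. The changes were moderate, from -0.82 for Kdm6b to 0.69 for Hdac11, and none reached 1 on the log2 scale.

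The shift was present in every CR library. For each gene the 6 libraries were set against the gene's own mean on the log2(FPKM + 1) scale, and the median of these deviations over the 71 genes was 0.12, 0.11 and 0.12 in control replicates 1 to 3 and -0.10, -0.15 and -0.08 in CR replicates 1 to 3. Over all tested genes the same medians lay between -0.03 and 0.02. All 3 CR values lay below all 3 control values in 44 of the 71 genes (24.3% of all tested genes) and above them in 7 (26.1% of all tested genes). Without CR replicate 2, 27 fell, and without CR replicate 3, 26 fell, with 4 higher in both and 10.2% of all tested genes lower in both. Chromatin genes have long transcripts, and long genes in general leaned the same way. Of the 2791 tested genes with at least 5 kb of exon 25.8% fell, against 64.3% of the 42 chromatin genes of that length, and of the 12456 shorter genes 14.0% fell, against 37.9% of 29 chromatin genes.

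**Figure D1:**
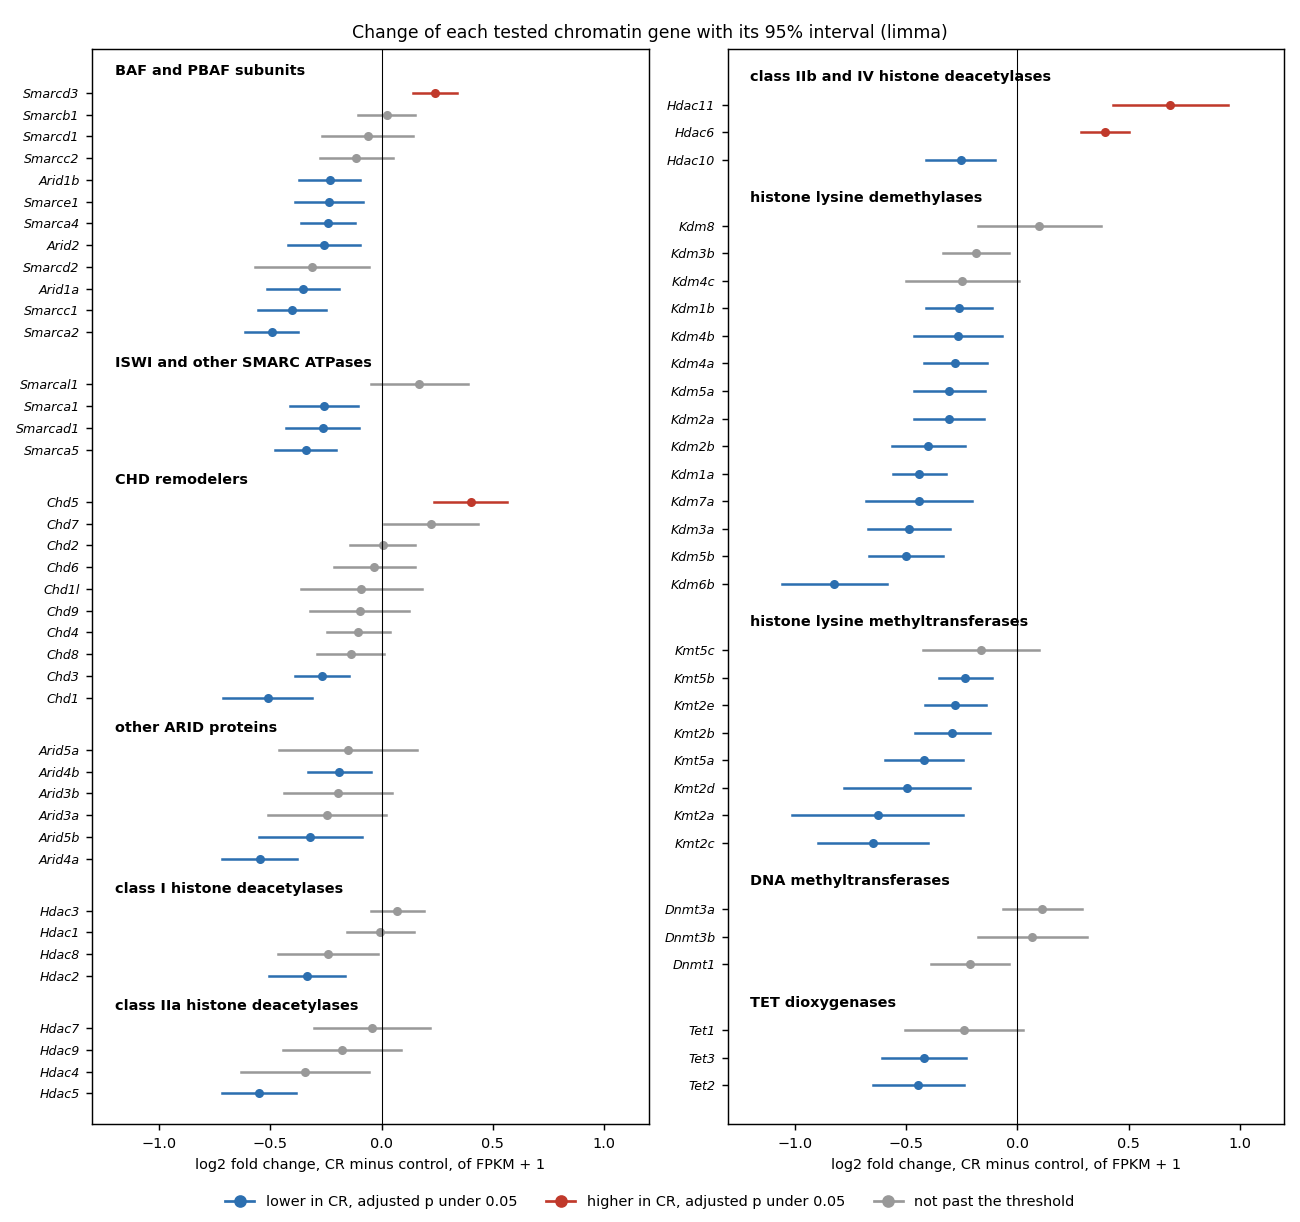
Each row is a tested chromatin gene, grouped by role; the point is its log2 fold change of FPKM + 1 (CR minus control, x axis) and the line its 95% interval from limma, with blue for lower, red for higher and grey for not past the threshold. Of the 38 blue rows, 11 are demethylases and 7 are methyltransferases, and the red rows are Smarcd3, Chd5, Hdac6 and Hdac11.

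The sequences before the transcription starts of leading genes in either direction are shown to set genes that fell beside genes that rose. RefSeq start sites (assembly GRCr8, which is not the build of the tables) were matched by symbol for 65 of the 75 genes, and of the genes with a single start window the pair with the largest increase and the pair with the largest decrease past the threshold are printed. Each is the 250 bases before the start, 5′ to 3′ on the gene's strand, with the GC box motif (GGGCGG on either strand, the site known for Sp-family factors) in capitals. Kdm6b lies at chr10:54641015-54641264 (minus strand), Hdac5 at chr10:87688055-87688304 (minus strand), Hdac6 at chrX:17222925-17223174 (plus strand) and Chd5 at chr5:168130862-168131111 (plus strand).
Kdm6b: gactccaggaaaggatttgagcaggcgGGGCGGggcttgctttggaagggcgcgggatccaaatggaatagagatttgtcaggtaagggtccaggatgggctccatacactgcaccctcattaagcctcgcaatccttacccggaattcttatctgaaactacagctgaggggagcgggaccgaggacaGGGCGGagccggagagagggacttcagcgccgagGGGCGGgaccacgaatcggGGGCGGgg
Hdac5: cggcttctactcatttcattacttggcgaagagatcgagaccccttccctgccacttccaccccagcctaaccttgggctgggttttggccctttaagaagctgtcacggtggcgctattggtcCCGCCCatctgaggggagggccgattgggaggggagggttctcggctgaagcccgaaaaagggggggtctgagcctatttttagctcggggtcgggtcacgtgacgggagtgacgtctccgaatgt
Hdac6: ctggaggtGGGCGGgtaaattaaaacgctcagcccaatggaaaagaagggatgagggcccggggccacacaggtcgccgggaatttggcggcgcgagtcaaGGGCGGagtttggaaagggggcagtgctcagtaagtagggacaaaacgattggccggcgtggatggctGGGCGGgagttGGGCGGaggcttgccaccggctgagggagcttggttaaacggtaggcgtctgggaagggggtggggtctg
Chd5: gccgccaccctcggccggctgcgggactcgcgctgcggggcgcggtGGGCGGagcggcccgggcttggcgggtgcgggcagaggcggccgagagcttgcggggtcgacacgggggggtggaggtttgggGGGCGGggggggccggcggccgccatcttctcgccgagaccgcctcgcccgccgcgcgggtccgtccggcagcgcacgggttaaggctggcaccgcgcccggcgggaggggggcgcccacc

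Kdm6b and Hdac5, which fell, hold 4 and 1 GC boxes, and Hdac6 and Chd5, which rose, hold 4 and 2. CpG dinucleotides numbered 16 and 15 in the first pair and 17 and 40 in the second. A GC box was in 60.2% of the 93 start windows of the chromatin genes and in 57.1% of the 11415 windows of genes that reached a mean of 0.5 FPKM, and the median CpG count was 16 in both sets. The CCAAT motif (either strand) was in 33.3% and 34.6%, and TATAAA (either strand) in 7.53% and 6.43%. Among the 47 windows of genes that fell 66% held a GC box, with a median CpG count of 19 and TATAAA in 4.26%. All 4 windows of genes that rose, from 3 genes, held a GC box, with a median CpG count of 27. No test was made of these shares, and the matches describe letters in a window, not bound sites.

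Histone lysine demethylases, which strip methyl groups from histone tails, had the largest number of genes that fell and were the largest role list. Of 14 tested, 11 fell, none rose and 3 did not pass, where 16.2% of all tested genes fell and 17.7% rose. Their median log2 fold change was -0.31. Kdm6b, which removes the repressive methyl mark laid down by Polycomb and is needed for neuronal differentiation, lies on chromosome 10 of mRatBN7.2 from 54121848 to 54130794. In replicate order, its control libraries held 19.3, 15.9 and 18.3 FPKM and its CR libraries 10.6, 8.39 and 10.1 FPKM. Every control library stood well above every CR library, and Kdm6b fell by 0.82 on the log2 scale (SE 0.101, limma adjusted p = 0.00157).

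Kdm5b, which removes the methyl mark of active promoters, was at 26.9, 28.5 and 30.8 FPKM in control and at 20.6, 18.4 and 21.0 FPKM in CR. The groups were far apart relative to their spread (log2 fold change -0.50, SE 0.0717, limma adjusted p = 0.00247). Kdm3a, an eraser of a methyl mark of silent chromatin that responds to hypoxia, was at 14.4, 13.8 and 13.8 FPKM in control and at 10.1, 8.56 and 10.5 FPKM in CR (-0.49, SE 0.0798, limma adjusted p = 0.00402). Kdm1a, the flavin-dependent demethylase of the CoREST corepressor, was the most abundant of the group and among the most even. Its control libraries were at 52.4, 51.6 and 52.1 FPKM and its CR libraries at 39.7, 35.7 and 38.8 FPKM, so that the groups did not overlap (-0.44, SE 0.0511, limma adjusted p = 0.00131). Kdm7a, a demethylase of repressive marks, was low, at 1.43 to 1.74 FPKM in control and 0.836 to 0.926 FPKM in CR, from 161 to 294 reads. It fell by 0.44 (limma adjusted p = 0.014), and the added 1 in the log scale understates its ratio of means of 0.566.

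Kdm2b, which binds CpG islands and recruits a variant Polycomb complex, fell from 29.4 ± 1.70 to 22.1 ± 1.71 FPKM (SD, n = 3 in each group), with a limma adjusted p of 0.00524. Kdm2a, its relative, fell from 19.3 ± 1.41 to 15.4 ± 0.731 FPKM, and Kdm4a from 44.9 ± 2.18 to 36.9 ± 2.21 FPKM. Kdm5a, Kdm1b and Kdm4b also fell, by 0.30, 0.26 and 0.27 on the log2 scale. Of the 3 that did not pass, Kdm3b and Kdm4c were lower by point estimate (-0.19, 95% interval -0.33 to -0.04, and -0.25, -0.50 to 0.01), and Kdm8 was the 1 with a higher mean (0.10, -0.18 to 0.38). With limma-voom Kdm3b passed as lower (adjusted p = 0.026). The call of Kdm5a was lost without CR replicate 3 (adjusted p = 0.0583), that of Kdm7a without CR replicate 3 (0.0551), and that of Kdm1b without CR replicate 2 (0.0624) or 3 (0.0681). Kdm4b was called with all libraries (limma adjusted p = 0.0451) but lost on leaving out any library other than control replicate 3 (0.0668 to 0.146). Exons of Kdm5a overlap those of Ccdc77 on the other strand, and no label or header states whether counting used strand. Exons of 3 other called genes (Hdac5, Kmt2d and Tet2) overlap those of another gene on the same strand, where strand cannot separate the genes. Among genes without a call, Hdac3, Smarcb1, Smarcd1, Smarcd2 and Hdac1l overlap a gene on the other strand.

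Histone lysine methyltransferases of the KMT nomenclature had the highest share of genes that fell among the role groups with at least 4 tested. In this group 7 of 8 fell and none rose, where 16.2% of all tested genes fell and 17.7% rose. The median log2 fold change of the group was -0.36. Kmt2c and Kmt2d, very large enzymes that place the methyl mark of enhancers, were at similar levels. Kmt2c was at 8.28, 9.17 and 10.9 FPKM in control and at 5.12, 6.08 and 5.74 FPKM in CR (log2 fold change -0.65, SE 0.106, limma adjusted p = 0.00405). Kmt2d was at 6.98, 6.65 and 9.10 FPKM in control and at 4.53, 5.16 and 5.46 FPKM in CR (-0.50, SE 0.121, limma adjusted p = 0.0176). In both, control replicate 3 was the highest library and no CR library reached a control library.

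Kmt2a, the enzyme that keeps developmental promoters active and is needed for neurogenesis in postnatal brain, was at 8.98, 9.12 and 14.5 FPKM in control and at 6.06, 6.71 and 6.81 FPKM in CR. The control SD of 3.15 FPKM came from control replicate 3 (-0.63, SE 0.166, limma adjusted p = 0.0232). Its close relative Kmt2b fell from 7.80 ± 0.158 to 6.19 ± 0.421 FPKM. Kmt5a, which adds the first methyl group to a lysine of histone H4 and is tied to chromosome condensation in cycling cells, fell from 9.25 ± 0.632 to 6.67 ± 0.334 FPKM (limma adjusted p = 0.00564). Kmt2e fell by 0.28 and Kmt5b by 0.23, while Kmt5c did not pass (-0.16, 95% interval -0.42 to 0.10). With 1 library left out, the call of Kmt2a was lost without CR replicate 1, 2 or 3 (adjusted p = 0.0717, 0.0643 and 0.0585), that of Kmt2d without CR replicate 1 or 2 (0.0584 and 0.0525), and that of Kmt2b without control replicate 1, CR replicate 1 or CR replicate 3 (0.0512, 0.0606 and 0.054).

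**Figure D2:**
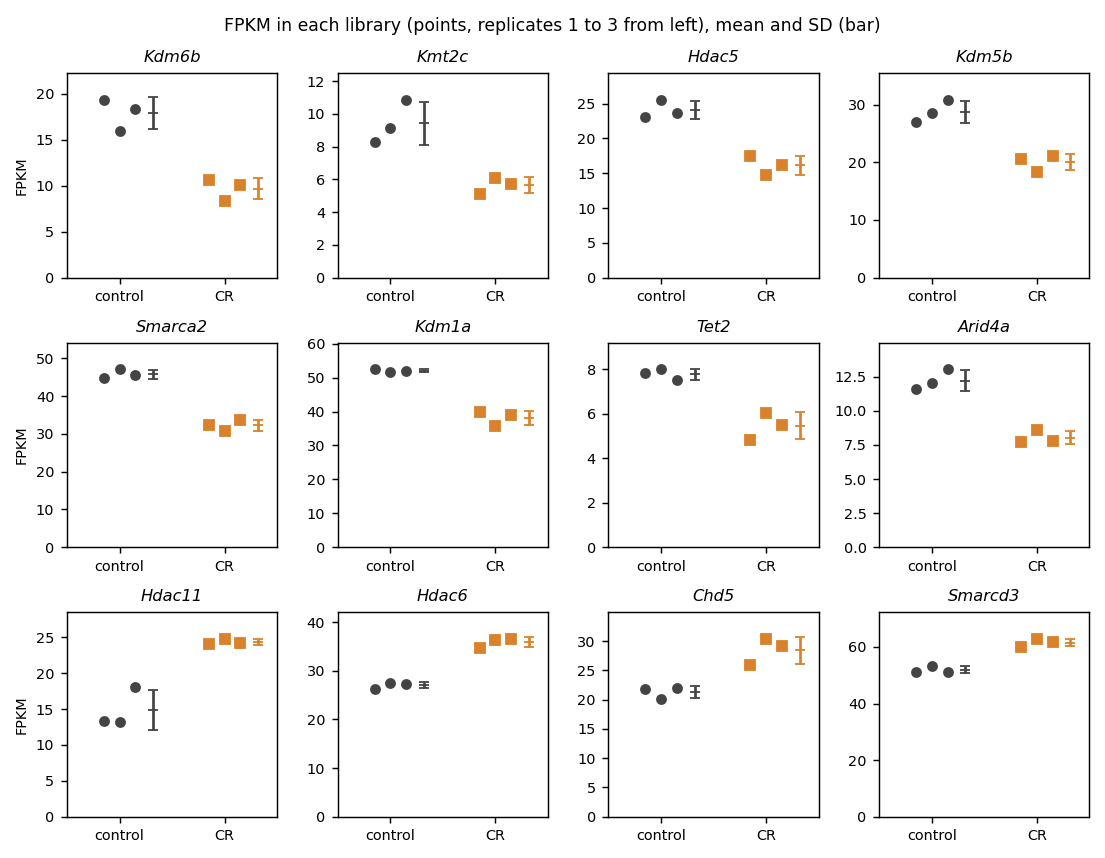
Each panel gives the FPKM (linear y axis from 0) of a chromatin gene in the 3 control libraries (grey circles) and the 3 CR libraries (orange squares), replicates 1 to 3 from the left, with the mean and SD beside them. In the 8 upper panels, from Kdm6b to Arid4a, every CR point is below every control point, and in Hdac11, Hdac6, Chd5 and Smarcd3 every CR point is above.

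Histone deacetylases, which remove acetyl groups and close chromatin or, for some, act on other proteins, had calls in both directions. Of the 11 tested, Hdac11 and Hdac6 rose, and Hdac2, Hdac5 and Hdac10 fell; among all tested genes 17.7% rose and 16.2% fell, so these counts are not far from the background. Hdac11, the only class IV enzyme and one known to remove fatty acyl groups, lies on chromosome 4 of mRatBN7.2 from 123650157 to 123667405. It was at 13.3, 13.2 and 18.1 FPKM in control and at 24.1, 24.8 and 24.2 FPKM in CR. The CR libraries were within 1 FPKM of each other and above all control libraries, and Hdac11 had the largest increase of the chromatin genes (log2 fold change 0.69, SE 0.111, limma adjusted p = 0.00383). Hdac6, a mostly cytoplasmic enzyme that deacetylates tubulin, was at 26.3, 27.6 and 27.3 FPKM in control and at 34.7, 36.4 and 36.5 FPKM in CR (0.39, SE 0.0463, limma adjusted p = 0.00136). Hdac6 lies on the X chromosome (14551044 to 14572441), and in a fit that also had a term for Y-linked RNA its increase was 0.40 (limma adjusted p = 0.00429).

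Hdac5, a class IIa enzyme that shuttles between nucleus and cytoplasm and binds MEF2 factors, was at 23.1, 25.5 and 23.7 FPKM in control and at 17.5, 14.8 and 16.2 FPKM in CR. No CR library reached a control library (-0.55, SE 0.0722, limma adjusted p = 0.00184). The other class IIa genes did not pass: Hdac4 was lower by point estimate (-0.34, 95% interval -0.63 to -0.06), as were Hdac9 (-0.18, -0.44 to 0.09) and Hdac7 (-0.04, -0.30 to 0.22). Hdac4 passed without CR replicate 2 (adjusted p = 0.0258) and with limma-voom (0.029).

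Hdac2, a class I catalytic subunit of the NuRD, Sin3 and CoREST complexes, was by far the most abundant deacetylase. It was at 179, 178 and 151 FPKM in control and at 141, 130.3 and 129.9 FPKM in CR (-0.33, SE 0.0733, limma adjusted p = 0.0117). Its partner Hdac1, at 19.2 to 21.8 FPKM in control and 19.2 to 21.3 FPKM in CR, did not pass, and its interval of -0.16 to 0.15 does not reach the point estimate of Hdac2. Hdac3 (0.07, 95% interval -0.05 to 0.19) and Hdac8 (-0.24, -0.47 to -0.02) did not pass either. Hdac10, known as a polyamine deacetylase, fell from 13.9 ± 1.01 to 11.5 ± 0.281 FPKM (limma adjusted p = 0.0226). The Hdac10 call was lost without control replicate 1 (0.0586) and without CR replicate 1, 2 or 3 (0.068, 0.0775 and 0.0577). The Hdac1-like gene Hdac1l, which may share reads with Hdac1, had 1 to 8 reads per library.

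Subunits of the BAF and PBAF complexes, the SWI/SNF remodelers, fell in 7 of 12 genes and rose in 1. The shares over all tested genes were 16.2% lower and 17.7% higher, and the median log2 fold change of the 12 was -0.24. Smarca2 and Smarca4 are the alternative ATPase motors. Smarca2 was at 44.7, 47.1 and 45.6 FPKM in control and at 32.3, 30.7 and 33.8 FPKM in CR, the lowest adjusted p of the chromatin genes (-0.49, SE 0.051, limma adjusted p = 0.000909). Smarca4 fell less, from 68.1 ± 0.510 to 57.5 ± 3.50 FPKM (-0.24, SE 0.0526, limma adjusted p = 0.0114). Smarcc1, a scaffold subunit abundant in progenitors, was at 29.7, 31.1 and 27.4 FPKM in control and at 22.3, 20.6 and 23.0 FPKM in CR (-0.40, SE 0.0659, limma adjusted p = 0.00391). Arid1a, the largest subunit of canonical BAF, fell from 18.4 ± 1.19 to 14.2 ± 0.858 FPKM (limma adjusted p = 0.00797).

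Smarcd3, a subunit of the neuronal and cardiac forms of the complex, was the BAF gene that rose. It was at 51.1, 53.4 and 51.3 FPKM in control and at 60.2, 62.8 and 61.7 FPKM in CR, with little spread in either group (0.24, SE 0.0423, limma adjusted p = 0.00509). The core subunit Smarcb1 (0.02, 95% interval -0.10 to 0.15), Smarcc2 (-0.11, -0.28 to 0.05), Smarcd1 (-0.06, -0.27 to 0.14) and Smarcd2 (-0.31, -0.57 to -0.06) did not pass. Smarce1, the most abundant chromatin gene measured, fell from 204 ± 11.7 to 174 ± 12.7 FPKM, Arid1b from 10.7 ± 0.184 to 8.96 ± 0.264 FPKM and Arid2, a subunit of PBAF, from 11.3 ± 0.573 to 9.32 ± 0.550 FPKM. These were the less stable BAF calls: each was lost without control replicate 2 (adjusted p = 0.0835, 0.0539 and 0.0612) and without CR replicate 2 (0.104, 0.0706 and 0.0888). Smarce1 was also lost without control replicate 1 (0.0542) and CR replicate 3 (0.0993), Arid1b without CR replicate 1 (0.0619), and Arid2 without control replicate 1 (0.071) and CR replicate 1 (0.0771). Smarcd1 passed without control replicate 3 (0.0346) and Smarcd2 without control replicate 2 (0.0402). Smarcd2 also passed with quantile normalization (0.0153), without the trend (0.0427) and with limma-voom (0.0203).

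Among the ISWI motors and other SMARC ATPases, Smarca5, the widely expressed ISWI motor, was at 26.5, 26.9 and 27.3 FPKM in control and at 22.5, 19.7 and 20.9 FPKM in CR. The control libraries were nearly alike and all above CR (-0.34, SE 0.0588, limma adjusted p = 0.00482). Smarca1, the X-linked ISWI motor of the nervous system, fell from 18.9 ± 1.27 to 15.7 ± 0.686 FPKM (limma adjusted p = 0.0198), and Smarcad1 from 11.6 ± 0.860 to 9.47 ± 0.315 FPKM (0.0243). Without CR replicate 2 the adjusted p of these was 0.0746 and 0.0884, without CR replicate 3 it was 0.0717 and 0.0681, and without control replicate 2 it was 0.0566 and 0.0622. Without CR replicate 1 that of Smarcad1 was 0.0552. Smarcal1, an annealing helicase of stalled replication forks, did not pass, although its 3 CR values were above its 3 control values (0.17, 95% interval -0.05 to 0.39).

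Of the 10 CHD remodelers, a family of ATPases with chromodomains, 2 fell, 1 rose and 7 did not pass, with a median log2 fold change of -0.09. These shares lie near those of all tested genes (16.2% lower and 17.7% higher). Chd3, Chd4 and Chd5 are alternative motors of the NuRD complex, of which Chd5 is the neuronal one. Chd5, on chromosome 5 of mRatBN7.2 from 162848394 to 162896291, was at 21.8, 20.1 and 22.1 FPKM in control and at 25.9, 30.4 and 29.1 FPKM in CR (0.40, SE 0.0711, limma adjusted p = 0.00535). Chd3, the most abundant, moved the other way, from 118, 111 and 109 FPKM in control to 97.2, 88.7 and 94.4 FPKM in CR (-0.27, SE 0.0521, limma adjusted p = 0.00739). Chd4 did not pass, at 51.4 ± 3.71 and 47.6 ± 1.55 FPKM (-0.10, 95% interval -0.25 to 0.04).

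Chd1, which reads the methyl mark of active promoters, had the largest decrease of its family. It was at 10.1, 10.8 and 12.5 FPKM in control and at 7.33, 7.31 and 7.76 FPKM in CR (-0.51, SE 0.0856, limma adjusted p = 0.00432). Chd7, the gene of CHARGE syndrome, had its 3 CR values (4.49 to 4.94 FPKM) above its 3 control values (3.48 to 4.19 FPKM) but did not pass (0.22, limma adjusted p = 0.0957); with limma-voom it passed as higher (adjusted p = 0.0189). Chd2, Chd6, Chd8, Chd9 and Chd1l did not pass, with log2 fold changes between -0.14 and 0.00.

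The other ARID proteins, which bind DNA through an AT-rich interaction domain, fell in 3 of 6 tested genes and rose in none. Of all tested genes 16.2% fell and 17.7% rose. Arid4a, a subunit of the Sin3 deacetylase complex, was at 11.59, 12.04 and 13.04 FPKM in control and at 7.70, 8.60 and 7.82 FPKM in CR. The groups were widely separated (-0.55, SE 0.0723, limma adjusted p = 0.00188). Arid5b (5.87 ± 0.782 and 4.48 ± 0.175 FPKM, limma adjusted p = 0.0407) and Arid4b (17.7 ± 0.937 and 15.4 ± 0.647 FPKM, 0.0471) were called close to the threshold. Leaving out any library other than control replicate 2 took the call from Arid5b (0.0743 to 0.121), and leaving out any other than control replicate 1 took it from Arid4b (0.0663 to 0.158). Arid3a, Arid3b and Arid5a did not pass, but with quantile normalization Arid3a and Arid3b passed as lower (limma adjusted p = 0.0253 and 0.0402).

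Of the enzymes of DNA methylation, none of the 3 tested methyltransferases passed, and 2 of the 3 TET dioxygenases, Tet2 and Tet3, fell. Of all tested genes 33.9% passed and 16.2% fell, and groups of 3 genes are too small to be set against these shares. The difference between these groups of genes was not tested. Tet2 was at 7.82, 7.99 and 7.52 FPKM in control and at 4.83, 6.05 and 5.52 FPKM in CR (-0.44, SE 0.0876, limma adjusted p = 0.00786). Tet3 was at 5.69, 5.81 and 5.73 FPKM in control and at 3.85, 3.85 and 4.43 FPKM in CR (-0.42, SE 0.0804, limma adjusted p = 0.00708). In both the control libraries were close together and all above CR. Tet1, the lowest of the family, was at 2.79 ± 0.341 and 2.21 ± 0.297 FPKM and did not pass (-0.24, 95% interval -0.50 to 0.03). Its CR values were all below its control values, and with quantile normalization it passed as lower (limma adjusted p = 0.0437).

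Dnmt1, which copies methylation after replication, was at 17.9 to 21.0 FPKM in control and 15.9 to 17.7 FPKM in CR. It did not pass (-0.21, limma adjusted p = 0.0662), but passed without control replicate 3 (0.0162) and with limma-voom (0.0333). Dnmt3a, the main de novo enzyme of the postnatal brain, overlapped between groups, at 15.5 ± 1.38 and 16.7 ± 0.859 FPKM (0.11, 95% interval -0.07 to 0.29). Dnmt3b was low, at 0.916 ± 0.0451 and 1.01 ± 0.141 FPKM (0.07, -0.18 to 0.31). Dnmt3l, a catalytically inactive cofactor of germ cells, had 1 or 2 reads per library and was not tested.

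The remaining untested genes were Arid3c, with 2 to 7 reads per library, and Kdm4d, a small testis-enriched demethylase. Kdm4d was at 0.152, 0.181 and 0.182 FPKM in control and at 0.407, 0.392 and 0.297 FPKM in CR, from 14 to 66 reads. All its CR values were above its control values, and with no filter on low values it was past the threshold as higher (limma adjusted p = 0.0274).

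Alternative subunits were then compared within each library, which no scaling between libraries can move. In 19 pairs of related genes, the log2 ratio of the FPKM of both genes was computed per library and tested by an exact two-sided permutation test, for which 0.1 is the smallest p that 3 against 3 libraries allow. In 9 pairs the groups did not overlap, 7 with the ratio higher in CR and 2 with it lower (exact p = 0.1 and adjusted p = 0.211 in each). Among all tested single genes, 24.3% had all 3 CR values below all 3 control values and 26.1% had them above. No such share was computed for ratios of other gene pairs, so the 9 pairs are not shown to exceed a background. Ezh1 to Ezh2, the non-dividing and dividing cell forms of the Polycomb methyltransferase, had the largest shift. The ratio of FPKM was 0.231, 0.247 and 0.255 in control and 0.334, 0.416 and 0.359 in CR, a difference of 0.59 in the log2 ratio. Ezh1 itself was at 6.66 ± 0.638 and 6.05 ± 0.140 FPKM and did not pass. Chd5 to Chd4 was at 0.425, 0.365 and 0.462 in control and at 0.543, 0.659 and 0.592 in CR.

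In the BAF complex, 3 ratios of related subunits were higher in every CR library. Actl6b to Actl6a, the actin-related subunits whose swap marks exit from the cell cycle, was at 3.90, 4.53 and 4.54 in control and at 5.71, 5.59 and 5.92 in CR. Of these, Actl6a fell from 14.3 ± 0.853 to 11.5 ± 0.329 FPKM, and Actl6b was at 61.7 ± 1.77 and 66.0 ± 0.730 FPKM and did not pass. Smarcc2 to Smarcc1 was at 2.77, 2.87 and 2.73 in control and at 3.37, 3.51 and 3.46 in CR, and Smarcd3 to Smarcd1 at 1.25, 1.28 and 1.55 and at 1.60, 1.70 and 1.73. The pairs Dpf1 to Dpf2 and Ss18l1 to Ss18, of the same swap as Actl6b to Actl6a, overlapped between groups. Their differences were -0.17 and -0.02 in the log2 ratio. Smarca2 to Smarca4 was lower in every CR library, at 0.655, 0.697 and 0.666 in control and 0.545, 0.573 and 0.564 in CR.

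Hdac2 to Hdac1 was the other ratio that was lower in every CR library, at 8.22, 8.67 and 7.85 in control and 6.79, 6.13 and 6.76 in CR. Kmt2b to Kmt2a and Kmt2d to Kmt2c were higher, by 0.37 and 0.16 in the log2 ratio. Without control replicate 3 the first was 0.14, and without control replicate 2 the second was 0.09. Dnmt3b to Dnmt3a, Tet3 to Tet1, Kdm4b to Kdm4a, Hdac5 to Hdac4, Hdac9 to Hdac4, Arid1b to Arid1a, Smarca1 to Smarca5 and Chd3 to Chd4 overlapped between the groups.

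**Figure D3:**
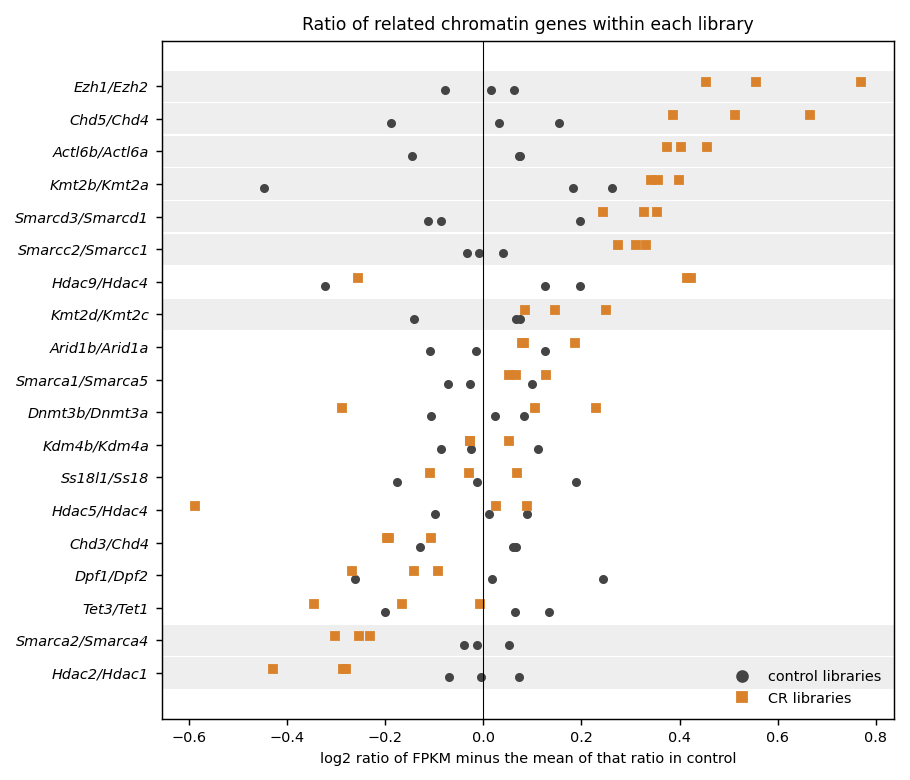
Each row is a pair of related chromatin genes; points are the log2 ratio of their FPKM in each library minus the mean of that ratio in control (x axis), with control libraries as grey circles and CR libraries as orange squares. Shaded rows are the 9 pairs whose groups do not overlap, from Ezh1/Ezh2 at the top to Hdac2/Hdac1 at the bottom.

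Partner genes of the same complexes were read from lists of other names. Of the 111 tested in 9 lists, 45 fell, 2 rose and 64 did not pass, with a median log2 fold change of -0.17, where 16.2% of all tested genes fell and 17.7% rose. Of these 47 calls 20 were lost on leaving out 1 library, and 27 were kept in every alternative. Of 14 BAF partners 7 fell and 2 rose. The neuronal transcription factors Bcl11a (61.2 ± 7.15 and 37.3 ± 5.30 FPKM) and Bcl11b (31.1 ± 2.68 and 19.5 ± 2.17 FPKM), which copurify with BAF, had the largest decreases of the list. Dpf1, a neuronal PHD finger subunit, fell from 73.5 ± 5.55 to 55.2 ± 2.02 FPKM, and its relative Dpf3 rose from 2.83 ± 0.198 to 5.43 ± 0.439 FPKM (0.75, SE 0.0904, limma adjusted p = 0.00148). Bcl7c, a small BAF subunit named here after its values were seen, was the other partner that rose, from 12.6 ± 1.14 to 16.3 ± 0.452 FPKM (limma adjusted p = 0.00953). Phf10 was listed at 0 in every library. Whether such a 0 means no RNA or a limit of the annotation was not tested.

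Of 8 NuRD partners 5 fell and none rose, and of 12 corepressor genes of deacetylases 5 fell and none rose. The shares over all tested genes were 16.2% lower and 17.7% higher. Gatad2b, a NuRD scaffold gene, fell from 15.2 ± 2.14 to 8.49 ± 0.367 FPKM (-0.76, limma adjusted p = 0.00171), and Mta2 from 38.4 ± 2.20 to 30.2 ± 2.55 FPKM. Sap30, a Sin3 subunit, had the largest decrease among the partner genes, from 24.4 ± 1.45 to 12.6 ± 0.741 FPKM (-0.90, SE 0.0665, limma adjusted p = 0.000365). The Sin3 scaffold Sin3a fell from 12.9 ± 1.36 to 9.30 ± 0.956 FPKM and the CoREST scaffold Rcor1 from 6.89 ± 1.10 to 4.37 ± 0.571 FPKM. Tbl1xr1, a subunit of the NCoR complex, fell from 12.4 ± 0.377 to 9.83 ± 0.592 FPKM. Rbbp4 and Gatad2a were also called (limma adjusted p = 0.0208 and 0.0284), but without CR replicate 2 their adjusted p was 0.0778 and 0.0931, without CR replicate 3 it was 0.0759 and 0.0903, and without control replicate 2 it was 0.0619 and 0.0672. Without control replicate 1 that of Gatad2a was 0.0693.

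Of 25 Polycomb genes 9 fell, none rose and 16 did not pass. Ezh2, the methyltransferase of dividing progenitors, fell from 27.3 ± 1.57 to 16.5 ± 2.18 FPKM (-0.69, SE 0.0943, limma adjusted p = 0.0021). Bmi1, which sustains neural stem cell renewal, fell from 51.5 ± 3.47 to 32.0 ± 2.87 FPKM (-0.67, SE 0.0765, limma adjusted p = 0.00126), and Cbx2 from 5.91 ± 0.690 to 3.40 ± 0.343 FPKM. Cbx8 fell from 10.5 ± 1.01 to 8.02 ± 0.463 FPKM, a call lost without control replicate 2 (limma adjusted p = 0.0521) or CR replicate 3 (0.0673). The partners of Ezh2 in its complex, Eed and Suz12, did not pass (-0.20 and -0.13). Of 7 COMPASS core genes, the shared subunits around KMT2 enzymes, 2 fell (Setd1b by 0.54 and Rbbp5 by 0.43). Over all tested genes 16.2% fell. Dpy30, with 285 bases of exon, was also listed at 0 in every library. Of 16 other histone methyltransferases 7 fell, led by Suv39h2 (4.60 ± 0.561 and 2.56 ± 0.219 FPKM), an enzyme of heterochromatin, and by Ash1l (14.0 ± 0.699 and 10.5 ± 0.710 FPKM). Ehmt1, whose loss causes Kleefstra syndrome, fell from 21.9 ± 0.503 to 17.3 ± 0.838 FPKM. Dot1l was called at -0.27 (limma adjusted p = 0.032), and the call was lost without control replicate 1 or 2 (0.0896 and 0.0524) and without CR replicate 1 or 2 (0.0918 and 0.111).

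**Figure D4:**
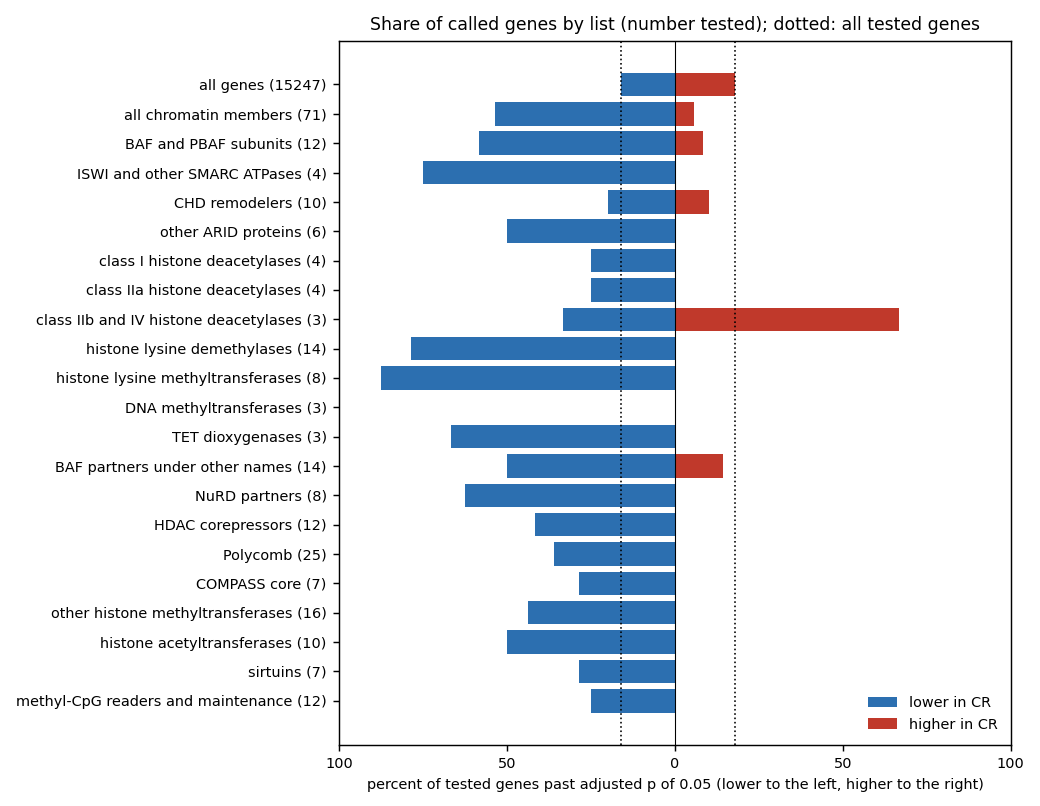
Bars give the percent of tested genes in each list that were lower (blue, to the left) or higher (red, to the right) in CR at a limma adjusted p under 0.05, with the number tested in brackets; the first 11 lists after the totals are roles of the chromatin genes, the last 9 are partner lists, and dotted lines mark the share over all tested genes. The lower share of the chromatin genes as a whole is 53.5% against 16.2% of all genes, and among the lists only the BAF, CHD and class IIb and IV deacetylase lists and the BAF partners have a red bar.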

How the data were processed

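Whole-brain RNA of newborn rats, 3 control and 3 CR libraries, was sequenced from a stranded kit, per the labels' protocols. The authors deposited 1 FPKM value per gene and library (30498 Ensembl genes) with each gene's exon length; the submitters' processing notes name Trim Galore 0.4.4, Trimmomatic 0.36, cutadapt 1.16, STAR 2.7.10a, featureCounts 2.0.1 and mRatBN7.2. FPKM times length gave whole reads within 0.05 for 100% of values, which gave the depths. Genes whose mean over the 6 libraries reached 0.5 FPKM were tested with limma 3.58.1 (R 4.3.3) with a trend on log2(FPKM + 1), two-sided, over all 6 libraries, with Benjamini-Hochberg adjustment over all genes tested and a threshold of 0.05. Fold changes on this scale understate those of low genes. The fit was run on simulated data with a fixed spread that was not taken from these libraries. That run therefore does not measure how often changes of the size seen here would be found.

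The members and lists were chosen with earlier results of these data known. Of each role, up to 4 genes past the threshold with the largest change in each direction were named with values, and of each partner list up to 4 by absolute change; genes of the pairs could be named; other members are given to account for all of them. Other pseudocounts, filters, scalings, limma-voom on the recovered reads, a replicate block and leaving out each library were tried.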

Additional observations from a re-analysis of the deposited data

How the results depend on the processing

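The 4 chromatin genes that rose (Smarcd3, Chd5, Hdac6 and Hdac11) passed in all 17 alternatives, and 23 of the 38 that fell did so too. The other 15 lost the call in at least 1 alternative, all of them on leaving out 1 library, and all 42 kept their sign in every alternative. Of the 29 tested genes that did not pass, 9 passed in at least 1 alternative. The number that fell ranged from 26 to 38 when 1 library was left out, against 38 with all. It was 33 with no filter on low values, 36 without the trend, 37 with median-ratio size factors, 40 with quantile normalization and 42 with limma-voom. The number that rose was 5 with limma-voom, which added Chd7, and 5 with no filter, which added Kdm4d, and 4 in the other alternatives. Over all tested genes, 5173 were past the threshold with all libraries and 3210 to 5042 with 1 left out (3210 without CR replicate 2 and 3308 without CR replicate 3). Quantile normalization gave 46.9% of calls as higher and the main scaling 52.3%. The count of gene pairs without overlap was 9 with all libraries and 9 to 12 with 1 left out. Leaving out a library cannot lower this count, so it is no check on the 9 pairs. With the replicate number as a block, 33 chromatin genes fell, 4 rose and 4445 genes in all passed. The labels give no pairing. Same-numbered libraries had correlations of 0.0245, 0.0198 and 0.0454 in their deviations, and each correlated best with its own number. Whether same-numbered libraries share a litter or a batch is not known, and these small correlations do not settle it. With a term for Y-linked RNA in the fit, chosen after seeing the data, 34 fell and 4 rose. Depth limits the lowest genes: 3 reads on a gene of 1 kb equal 0.117 to 0.214 FPKM.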

Other observations

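Enzymes that add acetyl groups, the counterparts of the deacetylases, fell in 5 of 10 tested genes and rose in none. Among all tested genes 16.2% fell and 17.7% rose. Kat6b, whose loss causes a developmental syndrome with intellectual disability, fell from 17.0 ± 0.690 to 11.97 ± 0.639 FPKM (SD, n = 3 in each group, limma adjusted p = 0.0019). Its relative Kat6a fell from 18.5 ± 0.553 to 14.4 ± 0.908 FPKM (limma adjusted p = 0.00583). The coactivators Ep300 and Crebbp fell by 0.33 and 0.41 on the log2 scale, but Ep300 lost the call without CR replicate 1 (limma adjusted p = 0.06) or 2 (0.0537). Crebbp lost it without control replicate 1 (limma adjusted p = 0.0559) or 3 (0.0591) and without CR replicate 1 (0.0971) or 2 (0.115).

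Sirtuins, the NAD-dependent deacylases, fell in 2 of 7 genes and rose in none, where 16.2% of all tested genes fell. With so few genes this count is not far from that share. Sirt1 was at 10.7 ± 0.829 FPKM in control and 8.38 ± 0.899 FPKM in CR (limma adjusted p = 0.0332), and Sirt7 at 9.17 ± 0.938 and 6.73 ± 0.552 FPKM (limma adjusted p = 0.0145). Sirt7 lost the call without CR replicate 2 (limma adjusted p = 0.0578) or 3 (0.0536), and Sirt1 without any library other than control replicate 3 and CR replicate 2 (0.0894 to 0.0982). Of 12 tested readers and maintenance genes of DNA methylation 3 fell (Zbtb38, Uhrf1 and Uhrf2), also not far from the 16.2% of all tested genes. Uhrf1 lost the call without control replicate 1 or 2 (limma adjusted p = 0.071 and 0.0849) and without CR replicate 2 or 3 (0.105 and 0.089), and Uhrf2 lost it without CR replicate 2 (0.0598). Zbtb38 fell from 5.91 ± 0.482 to 3.80 ± 0.426 FPKM (limma adjusted p = 0.00599).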
